A study of Caenorhabditis elegans with 10 samples.

Results

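The delta-9 desaturase genes of Caenorhabditis elegans are fat-5, fat-6 and fat-7, and they were taken by name from the ribosome profiling of animals cooled in steps. These 3 genes are the whole family, out of 19985 genes in the table. Each was read from the transcript with the highest mean value. All 3 passed the filter on low values, which asked for a mean of 1 FPKM or more across conditions and left 9945 genes. FPKM is the number of footprints per kilobase of coding sequence, scaled to the depth of the column.

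Delta-9 desaturases sit in the membrane of the endoplasmic reticulum and place the first double bond into a saturated fatty acid. FAT-5 acts mainly on palmitic acid, while FAT-6 and FAT-7 act mainly on stearic acid and make oleic acid, from which the worm builds its polyunsaturated fatty acids. FAT-6 and FAT-7 are close paralogs that can stand in for each other, and animals that lack the family do not survive. Unsaturated acyl chains keep membranes fluid, and for this reason the family is one of the best known parts of the response of worms to lower temperature. The genes are known to be active mainly in the intestine, the main fat-storing tissue of the worm.

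Ribosome profiling sequences the mRNA fragments that ribosomes protect. The animals were whole wild-type (N2) worms with no transgene, drug or mutation in any group, in 10 libraries that formed 5 conditions with 2 libraries each. These were 1-day-old adults kept at 20°C, animals moved to 10°C, and animals moved on to 4°C and collected on days 1, 3 and 5. The time at 10°C was 3 hours in the treatment label and 2 hours in the protocol, and the day 5 libraries carry a treatment label of 3 days beside a title of 5 days. The title was followed. Control worms held at 20°C for as long as the others were cooled are not among the samples, and the effect of cold and that of time or age cannot be told apart. In whole animals, fewer cells of a type and less RNA per cell cannot be told apart either.

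The deposited table held 1 pooled column per condition and no replicate columns, and therefore neither an SD nor a p can be given for any value. Summed over all transcripts, the column of 20°C held 675550 counts and that of 10°C 486109, while the columns of 4°C were deeper, with 2657757 to 3058810 counts. A single count on a coding sequence of 1000 nt equalled 1.48 FPKM in the 20°C column, 2.06 FPKM in the 10°C column and 0.327 to 0.376 FPKM in those of 4°C. All intervals are 95% intervals of the recovered counts and cover counting error only, not the spread between the 2 libraries of a condition. FPKM is a share of its column, and a lower rate of synthesis of all proteins together would leave it as it is. RNA-seq was not analysed here, so that the amount of an mRNA and how well it was translated cannot be told apart.

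fat-5 (WBGene00001397) lies on chromosome V, 17725004 to 17726818 on the plus strand of WBcel235, and its 1002 nt of coding sequence fall into 3 exons of 214, 337 and 451 nt. fat-6 (WBGene00001398) lies on chromosome IV, 11913692 to 11915687 on the minus strand. fat-7 (WBGene00001399) lies on chromosome V, 7151353 to 7153146 on the minus strand. The 5 coding exons of fat-7 measured 117, 121, 337, 162 and 280 nt, and those of the longest fat-6 transcript 120, 121, 337, 162 and 280 nt. The last 4 coding exons of fat-6 and fat-7 were thus of equal length, and an exon of 337 nt occurred in all 3 genes. The introns were not alike, at 369, 298, 55 and 108 nt in fat-6, 112, 238, 48 and 270 nt in fat-7, and 55 and 656 nt in fat-5. No other gene overlapped the coding sequence of a member. The sources used here do not say how reads that match both fat-6 and fat-7 were assigned, so the division of footprints between these paralogs is uncertain, and its effect was not tested.

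**Figure D1:**
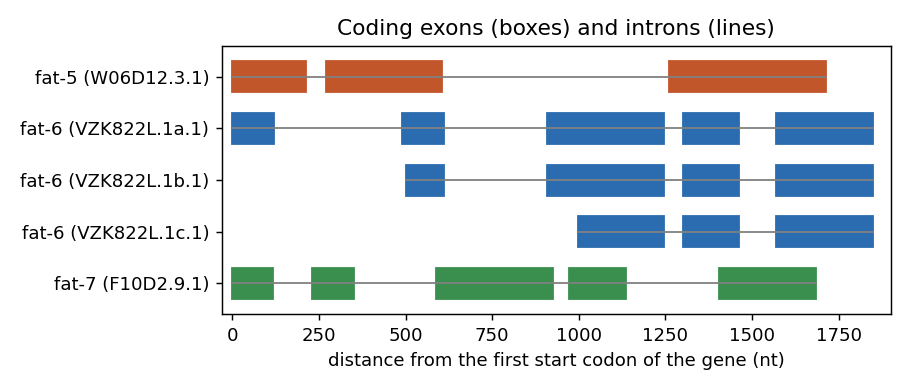
Coding exons (boxes) and introns (lines) of the annotated transcripts of fat-5, fat-6 and fat-7, against distance from the first start codon of each gene in nucleotides. The exon of 337 nt occurs in each gene, and fat-6 has 3 nested transcripts of 1020, 888 and 690 coding nt.

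The nearest coding genes carried almost no footprints. str-77 and cutl-4, beside fat-5, held 0 counts in every column, and so did ZK822.9 beside fat-6. VZK822L.2, 489 bp from fat-6, held 3 counts, all of them after 1 day at 4°C. F10D2.8, 638 bp from fat-7, held 1 count in all, and F10D2.10, 1356 bp away, held at most 3 counts in any column. No neighbour thus held more than 3 counts in any column. In FPKM, F10D2.10 stood at 4.43 at 20°C and 6.16 at 10°C, and VZK822L.2 at 4.48 on day 1 at 4°C. These FPKM values are of the size of those of fat-5 and fat-7 at 4°C given below.

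fat-6, a stearoyl-CoA desaturase gene, had the most footprints of the family in every condition. Read from its transcript with 888 coding nt, it stood at 138 FPKM at 20°C (110 to 172, 83 counts) and 111 FPKM at 10°C (82.0 to 147, 48 counts). At 4°C it stood at 14.8 FPKM on day 1 (10.3 to 20.6, 35 counts), 10.95 FPKM on day 3 (7.34 to 15.7, 29 counts) and 14.4 FPKM on day 5 (10.2 to 19.6, 39 counts). The 20°C and 10°C intervals overlapped each other and lay far above those at 4°C.

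fat-5, the palmitoyl-CoA desaturase gene, stood at 45.8 FPKM at 20°C (31.1 to 65.0, 31 counts) and 69.8 FPKM at 10°C (48.3 to 97.5, 34 counts). At 4°C it stood at 3.38 FPKM on day 1 (1.55 to 6.42, 9 counts), 3.68 on day 3 (1.84 to 6.59, 11 counts) and 3.59 on day 5 (1.79 to 6.42, 11 counts). It ranked between the other members before 4°C and had the lowest value of the family on each day at 4°C.

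fat-7, the paralog of fat-6, stood at 21.8 FPKM at 20°C (12.2 to 36.0, 15 counts) and 34.4 FPKM at 10°C (20.0 to 55.1, 17 counts). At 4°C it stood at 4.44 FPKM on day 1 (2.29 to 7.76, 12 counts), 4.62 on day 3 (2.52 to 7.75, 14 counts) and 5.46 on day 5 (3.18 to 8.75, 17 counts). The counts on this gene were few in every column, and its intervals were wide.

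**Figure D2:**
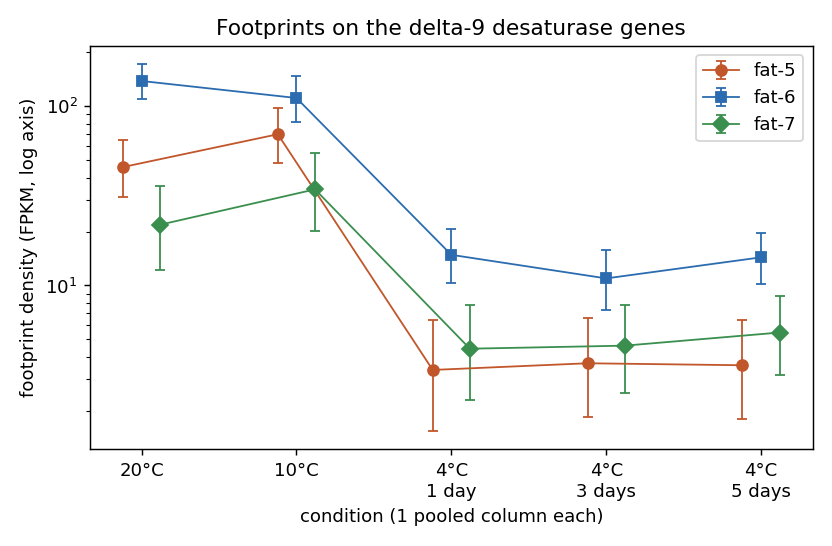
Footprint density of fat-5, fat-6 and fat-7 in FPKM on a log axis in the 5 pooled conditions, with bars for the 95% counting interval. Each gene has 1 step, between the conditions at 20°C and 10°C and those at 4°C, and fat-6 is the highest point in every condition.

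The order of the levels had 1 break per gene. fat-5 and fat-7 ran from 10°C down to 20°C and then to the 3 days at 4°C, while fat-6 was highest at 20°C. Of the 4 pairs of neighbours in each order, only the pair across the change to 4°C had an interval that left out 1. That pair was 20°C over 4°C day 3 for fat-5, 10°C over 4°C day 1 for fat-6, and 20°C over 4°C day 5 for fat-7. Conditions on the same side of the break did not differ from each other beyond counting error in any of the genes.

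Relative to all compared genes, the family moved from high to middling or low positions. At 20°C, 92.8% of the compared genes lay below fat-6, 84.2% below fat-5 and 73.5% below fat-7. On day 1 at 4°C, 61.5% lay below fat-6, 27.0% below fat-5 and 32.9% below fat-7. On day 5 these shares were 61.5%, 34.4% and 42.3%.

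The first question was whether mild cooling to 10°C changed the family. No member reached 2-fold, the size at which a gene was called higher or lower on log2(FPKM + 0.5), and 9.1% of all compared genes were called lower and 12.2% higher. A stricter rule also asked for at least 10 counts over both columns and an interval that leaves out 1. It called no member, and 0.201% of the genes with 10 counts lower and 0.724% higher. The ratio of 10°C over 20°C was 1.52 for fat-5 (0.909 to 2.56), 0.804 for fat-6 (0.551 to 1.16) and 1.57 for fat-7 (0.740 to 3.39). The family summed to 215 FPKM at 10°C and 206 FPKM at 20°C, a ratio of 1.05. By the summed counts, 99 at 10°C and 129 at 20°C, the ratio scaled to depth was 1.07 (0.812 to 1.40). A rise of fat-5 of up to 2.56-fold and one of fat-7 of up to 3.39-fold are within the counting error.

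The next question, and the step on which the study centred, was the first day at 4°C against 10°C. All 3 members were called lower, where 14.5% of the compared genes were called lower and 17.8% higher. Under the stricter rule all 3 were again called lower, where it called 4.19% of the genes with 10 counts lower and 6.7% higher. The family summed to 22.6 FPKM at 4°C day 1 and 215 FPKM at 10°C, 9.51-fold lower (6.90 to 13.7 by the summed counts). Among the 3006 genes with at least 10 counts at 10°C, ranked from the largest fall, fat-5 was at place 4, fat-6 at place 28 and fat-7 at place 31. The differences on log2(FPKM + 0.5) were −4.18 for fat-5, −2.87 for fat-6 and −2.82 for fat-7, beside a median of 0.10 over all compared genes.

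The later days at 4°C were set against each other to see whether the levels came back or went on falling. No member was called in either direction between day 3 and day 1, where 6.78% of compared genes were called lower and 5.38% higher. None was called between day 5 and day 3, where 14.7% were called lower and 2.85% higher. The stricter rule called no member in either step, and it called 4.1% of genes lower and 2.52% higher on day 3 against day 1, and 9.67% lower and 1.39% higher on day 5 against day 3. The ratio of day 3 over day 1 was 1.09 for fat-5 (0.410 to 2.97), 0.739 for fat-6 (0.436 to 1.24) and 1.04 for fat-7 (0.446 to 2.46). For day 5 over day 3 it was 0.975 for fat-5 (0.383 to 2.48), 1.31 for fat-6 (0.790 to 2.20) and 1.18 for fat-7 (0.549 to 2.59). Over the whole span, day 5 over day 1, it was 1.06 (0.400 to 2.899) for fat-5, 0.968 (0.598 to 1.57) for fat-6 and 1.23 (0.554 to 2.82) for fat-7. With 9 to 39 counts per gene and day, changes within these bounds were not detectable.

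Against the 20°C start, every member was called lower on each day at 4°C. The background share called lower was 12.2% on day 1, 15.5% on day 3 and 21.5% on day 5, and the share called higher was 19.7%, 23.2% and 23.6%. The stricter rule also called every member lower on each day. It called 4.85%, 8.11% and 11% of genes lower on days 1, 3 and 5, and 9.9%, 13.8% and 16.7% higher. These comparisons share the 20°C column, so they are not independent of each other. fat-5 was 13.6-fold lower on day 1 (6.30 to 32.4), 12.4-fold on day 3 (6.08 to 27.4) and 12.8-fold on day 5 (6.24 to 28.1). fat-6 was 9.33-fold lower on day 1 (6.21 to 14.3), 12.6-fold on day 3 (8.19 to 20.0) and 9.64-fold on day 5 (6.51 to 14.5). fat-7 had the smallest fall each day, 4.92-fold on day 1 (2.15 to 11.5), 4.73-fold on day 3 (2.13 to 10.6) and 4.00-fold on day 5 (1.86 to 8.50). The summed level of the family was 9.09-fold lower on day 1 (6.57 to 12.6 by the summed counts) and 8.80-fold lower on day 5 (6.44 to 11.9 by the summed counts). Among the 3631 genes with at least 10 counts at 20°C, ranked from the largest fall, fat-5, fat-6 and fat-7 were at places 15, 38 and 80 on day 1 and at places 141, 165 and 349 on day 5.

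**Figure D3:**
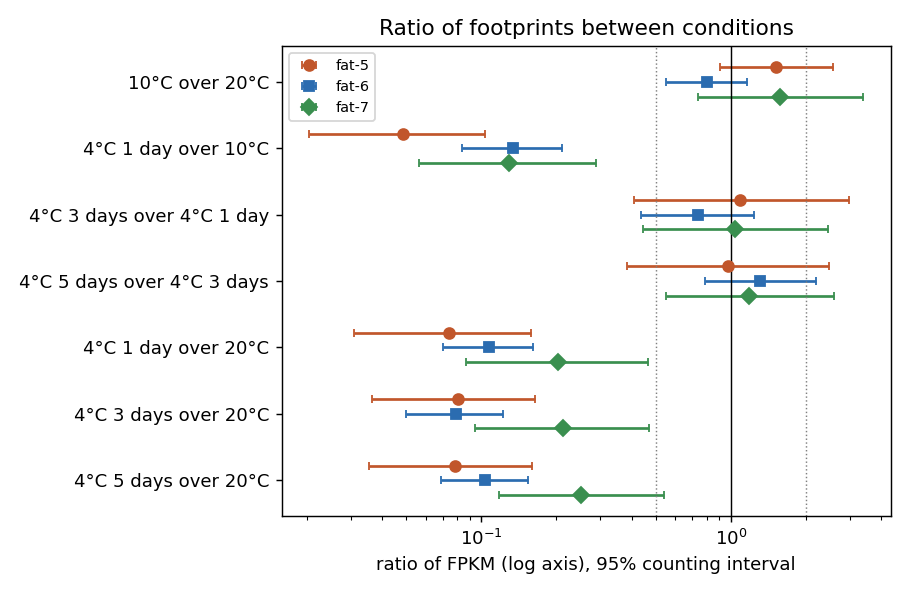
Ratio of FPKM between pairs of conditions on a log axis for fat-5, fat-6 and fat-7, with bars for the 95% counting interval, a solid line at equality and dotted lines at 2-fold. The 4 comparisons of 4°C with 10°C or 20°C lie left of equality for each gene, and the bars of the other 3 comparisons cross it.

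Whether the members fell by the same factor was read from the pairwise ratio of ratios, 21 values over 7 comparisons. In 4 of them the interval left out 1. The factor of the fall was 2.73 times larger in fat-5 than in fat-6 on day 1 at 4°C against 10°C (1.105 to 7.34). Against 20°C, the factor was 2.65 times smaller in fat-7 than in fat-6 on day 3 (1.05 to 6.72) and 2.40 times smaller on day 5 (1.01 to 5.75). It was also 3.14 times smaller in fat-7 than in fat-5 on day 5 (1.08 to 9.54). When the intervals were widened to hold jointly over the 21 values, 0 left out 1, so a difference between members was not shown at this depth.

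The division of the family's footprints followed from these values. Per coding length, fat-6 held 67.2% of the summed FPKM at 20°C, 51.6% at 10°C and 65.5%, 56.9% and 61.3% on days 1, 3 and 5 at 4°C. fat-5 held 22.2%, 32.4%, 14.9%, 19.1% and 15.3% in the same order. fat-7 held 10.6%, 16.0%, 19.6%, 24.0% and 23.3%. fat-6 held the largest share in all 5 conditions. By counts, with Wilson intervals, the share of fat-5 was 16.4% on day 5 (9.42% to 27.1%) and 24.0% at 20°C (17.5% to 32.1%). That of fat-7 was 25.4% on day 5 (16.5% to 36.9%) and 11.6% at 20°C (7.17% to 18.3%). The intervals overlapped in both genes.

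**Figure D4:**
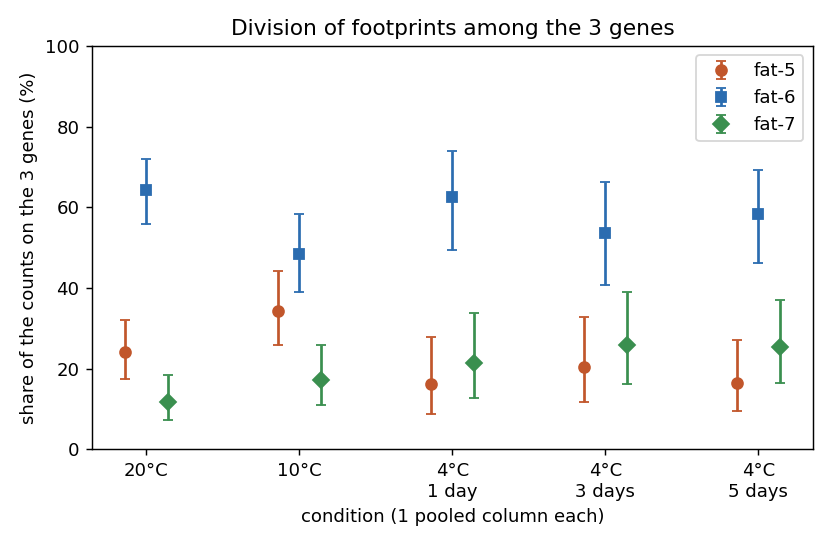
Share of the counts on the 3 genes that fell on fat-5, fat-6 and fat-7 in each pooled condition, in percent, with bars for the Wilson 95% interval. fat-6 holds the largest share in every condition, and the shares of fat-7 at 4°C, 21.4% to 25.9%, lie above its 11.6% at 20°C with overlapping intervals.

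The nested transcripts of fat-6 allowed its coding sequence to be read in 3 segments, a reading chosen after the values were seen. The counts of the whole coding sequence of 1020 nt were 87, 50, 39, 29 and 42 at 20°C, 10°C and on days 1, 3 and 5 at 4°C. The first 132 nt, which only the longest transcript holds, took 4, 2, 4, 0 and 3 of them, and the floor of 3 counts for the 0 on day 3 is 7.62 FPKM. The middle 198 nt took 38, 20, 10, 9 and 12, and the last 690 nt, common to all transcripts, took 45, 28, 25, 20 and 27. The middle segment stood at 19.8 FPKM on day 5 at 4°C and 284 FPKM at 20°C, and the last segment at 12.8 and 96.5 FPKM. Footprints at 20°C were thus denser on the middle segment than on the last.

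The fall of fat-6 was seen in both segments that held enough counts. At 4°C day 1 against 10°C, the middle segment was 10.9-fold lower (4.89 to 26.2) and the last segment 6.12-fold lower (3.44 to 10.95). On day 5 against 20°C they were 14.3-fold (7.33 to 30.1) and 7.55-fold lower (4.58 to 12.6). The ratio of these ratios had an interval that held 1 in each of the 7 comparisons. With the columns at 4°C set together (31 counts on the middle and 72 on the last segment) against those at 20°C and 10°C (58 and 73 counts), it was 0.543 (0.302 to 0.965). That grouping was formed after the values were seen and its interval was not widened for the number of comparisons, so a difference between the segments was not shown.

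**Figure D5:**
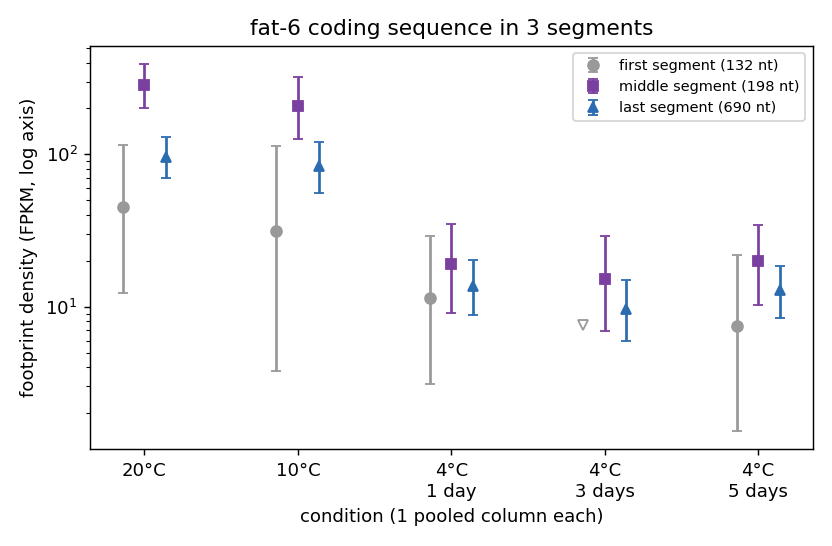
Footprint density on the first, middle and last segment of the fat-6 coding sequence in FPKM on a log axis in the 5 pooled conditions, with bars for the 95% counting interval and an open triangle at the floor of 3 counts where the count was 0. The middle segment lies at 19.8 FPKM on day 5 at 4°C and 284 FPKM at 20°C, and the last segment at 12.8 and 96.5 FPKM.

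The enzymes around the delta-9 step were set beside the family by lists of genes of known role. The background for their counts is again 14.5% of compared genes called lower and 17.8% higher on day 1 at 4°C against 10°C, and 21.5% lower and 23.6% higher on day 5 against 20°C. Upstream, 4 genes make palmitate, and 1 was called lower on day 1 at 4°C against 10°C, with a list median of −0.81 on the log2 scale. This was pod-2, the acetyl-CoA carboxylase gene, at 14.02 FPKM on day 1 and 37.9 FPKM at 10°C, 2.704-fold lower (1.85 to 3.91). fasn-1, the fatty acid synthase gene, stood at 11.99 FPKM on day 1 and 21.2 FPKM at 10°C. By day 5 fasn-1 was at 3.67 FPKM against 26.2 FPKM at 20°C, 7.15-fold lower (5.44 to 9.45). The ATP citrate lyase genes, which supply acetyl-CoA, differed from each other on day 5 against 20°C. acly-1 was at 39.6 FPKM on day 5 and 80.7 FPKM at 20°C and was called lower, while acly-2 was at 116 FPKM on day 5 and 96.9 FPKM at 20°C. On day 5 against day 3, pod-2 was 2.71-fold lower (1.78 to 4.25) and fasn-1 4.30-fold lower (3.40 to 5.49), in a step where no delta-9 gene was called.

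Desaturation draws electrons from cytochrome b5 and its reductase. Of 4 genes for these electron donors, 0 were called on day 1 at 4°C against 10°C, and the list median was −0.46. cytb-5.1, a cytochrome b5 gene, stood at 86.4 FPKM on day 1 and 71.1 FPKM at 10°C, and hpo-19, a reductase gene, at 47.7 and 61.9 FPKM. cytb-5.2, the other cytochrome b5 gene, stood at 55.6 FPKM on day 1 and 82.1 FPKM at 10°C. On day 5 against 20°C, 3 of the 4 were called lower, with cytb-5.2 at 29.9 FPKM on day 5 and 108 FPKM at 20°C, 3.60-fold lower (2.17 to 5.92). The 0 of 4 on day 1 is near the background share of 14.5%, and T05H4.4, the remaining gene, named after its values were seen, held 3 counts on day 1 and 1 count at 10°C.

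Elongation lengthens acyl chains both before and after the delta-9 step, and 9 of 12 listed genes passed the filter. ELO-2 acts before it, on the palmitic acid that becomes stearic acid, and ELO-5 and ELO-6 make branched-chain acids. On day 1 at 4°C against 10°C, 6 were called lower and 0 higher, where 14.5% of compared genes were lower, with a list median of −1.05. The stricter rule called 4 of them. The 6 were all elongases, the enzymes that add the new carbon unit: elo-1, elo-2, elo-3, elo-5, elo-6 and elo-9, of which elo-3, elo-6 and elo-9 were named after their values were seen. The intervals of elo-3 and elo-9 held 1, and elo-9 rested on 4 counts on day 1 and 2 at 10°C. elo-1 stood at 25.6 FPKM on day 1 and 52.2 FPKM at 10°C, 2.04-fold lower (1.19 to 3.38). The falls of elo-6, elo-2 and elo-5 were larger, at 42.5-fold (21.2 to 96.8), 10.9-fold (7.05 to 17.3) and 8.34-fold (4.52 to 15.7). elo-6 held 9 counts on day 1 and 70 at 10°C. The enzymes of the remaining steps were not called. let-767, a ketoacyl-CoA reductase gene, stood at 76.4 FPKM on day 1 and 106 FPKM at 10°C, hpo-8, a dehydratase gene, at 34.4 and 50.1 FPKM, and art-1, an enoyl-CoA reductase gene, at 219 and 233 FPKM. On day 5 against 20°C, 8 of the 9 were called lower.

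The polyunsaturated fatty acid desaturases, whose pathway starts from the oleic acid that FAT-6 and FAT-7 make, were 4 of 4 called lower on day 1 at 4°C against 10°C, with a median of −2.72, and the stricter rule called 1 of them. fat-1, the omega-3 desaturase gene, fell to 24.0 FPKM on day 1, against 69.8 FPKM at 10°C, 2.91-fold lower (1.94 to 4.31). It stood at 14.9 FPKM on day 5 and 83.3 FPKM at 20°C, 5.60-fold lower (3.87 to 8.14). The other 3 genes were read from transcripts with 1 to 6 counts at 10°C. Their fullest transcripts by count were therefore read too, which was decided with the values in view. There fat-2, whose enzyme acts on oleic acid, was 15.7-fold lower on day 1 than at 10°C (6.79 to 40.6). fat-4 was 8.59-fold lower there (3.04 to 26.1) and fat-3 6.56-fold lower (1.67 to 27.2). On days 1, 3 and 5 at 4°C fat-2 held 8, 5 and 1 counts, and the delta-9 genes together 56, 54 and 67. The interval of fat-2 for day 5 against day 3 held 1.

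The list of regulators of the family included nuclear receptors and membrane sensors, and whether each listed gene acts on the delta-9 genes was not tested. Of 12 listed genes 11 passed the filter, and on day 1 at 4°C against 10°C 0 were called lower and 1 higher, with a list median of 0.32. These counts are near the background shares of 14.5% lower and 17.8% higher. That gene was nhr-66, a nuclear receptor gene named after its values were seen, with 24 counts on day 1 and 1 count at 10°C, a ratio of 4.39 (0.716 to 181). nhr-49, the nuclear receptor gene known to drive transcription of the delta-9 genes, stood at 26.8 FPKM on day 1 and 21.5 FPKM at 10°C, a ratio of 1.24 (0.720 to 2.30). mdt-15, its Mediator partner, stood at 31.2 and 31.6 FPKM, a ratio of 0.986 (0.688 to 1.45). iglr-2, which works with the membrane fluidity sensor PAQR-2 in cold adaptation, stood at 13.6 FPKM on day 1 and 10.6 FPKM at 10°C, and paqr-1, a relative of that sensor, at 37.0 and 44.9 FPKM. nhr-80, a nuclear receptor gene also known to act on the family, held 0 counts on day 1 and 1 count at 10°C and did not pass the filter.

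On day 5 against 20°C, 1 gene of the regulator list was called lower and 3 higher, and these 4 were named after their values were seen. acdh-11, an acyl-CoA dehydrogenase gene that limits fat-7, stood at 9.35 FPKM on day 5 and 21.6 FPKM at 20°C, 2.31-fold lower (1.40 to 3.73). fld-1, a gene known to act against PAQR-2 in membrane fluidity, stood at 27.6 FPKM on day 5 and 12.7 FPKM at 20°C, a ratio of 2.18 with an interval that left out 1. The intervals of nhr-66 and nhr-13 held 1. nhr-49 stood at 31.2 FPKM on day 5 and 18.6 FPKM at 20°C, a ratio of 1.68 (1.02 to 2.92) that was not called. On day 5 against day 3, 1 of the 11 compared was called lower and 0 higher. It was sbp-1, named after its values were seen, 3.15-fold lower (1.69 to 6.24) on 14 counts on day 5 and 43 on day 3.

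Other genes that depend on NHR-49 moved in both directions. Of 4 compared, 2 were called lower and 1 higher on day 1 at 4°C against 10°C. The shares over all compared genes were 14.5% lower and 17.8% higher. acs-2, an acyl-CoA synthetase gene of fat breakdown, stood at 4.05 FPKM on day 1 and 12.2 FPKM at 10°C, 3.01-fold lower (1.30 to 6.58). hacd-1, a hydroxyacyl-CoA dehydrogenase gene, was the other gene called lower, and its fall was much larger. It stood at 1.67 FPKM on day 1 (4 counts) and 206 FPKM at 10°C (90 counts), 123-fold lower (46.4 to 461). fmo-2, a flavin-containing monooxygenase gene, held 66 counts on day 1 and 1 count at 10°C, a ratio of 12.1 (2.09 to 484). icl-1, the glyoxylate cycle gene, stood at 172 FPKM on day 1 and 105 FPKM at 10°C, a ratio of 1.65 (1.39 to 1.96).

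Of 7 genes of triacylglycerol synthesis and storage, 2 were called lower and 0 higher on day 1 against 10°C. Of all compared genes, 14.5% were lower and 17.8% higher. The list median was 0.13, close to the 0.10 of all compared genes. plin-1, the lipid droplet perilipin gene, stood at 632 FPKM on day 1 and 334 FPKM at 10°C, a ratio of 1.89 (1.63 to 2.21) that did not reach 2-fold. acl-6, an acyltransferase gene, was called lower, at 3.84 FPKM on day 1 and 8.58 FPKM at 10°C, with an interval that held 1. acs-22, an acyl-CoA synthetase gene named after its values were seen, was 2.60-fold lower (1.09 to 5.78).

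Marker genes were read to see whether the tissue of the family moved with it. Intestine markers summed to 13109 FPKM on day 1 at 4°C and 12355 FPKM at 10°C, with 0 of 13 at 0 in any condition. Most of each sum was yolk protein genes, with vit-2, vit-5 and vit-6 at 3153, 3274 and 4126 FPKM on day 1 and 2766, 4742 and 2935 FPKM at 10°C. Of the 13, 3 were called lower and 0 higher, where 14.5% of compared genes were lower. These 3, named after their values were seen, were the peptide transporter gene pept-1, 4.56-fold lower (2.14 to 9.57), the proton pump subunit gene vha-6, 4.50-fold lower (2.05 to 9.71), and the sodium-proton exchanger gene nhx-2, 13.7-fold lower (2.24 to 144) on 2 counts on day 1 and 5 at 10°C. The brush border actin gene act-5 stood at 595 FPKM on day 1 and 409 FPKM at 10°C, and the intestinal protease gene asp-1 at 823 and 741 FPKM. Later the sum was lower, at 9957 FPKM on day 3 and 3764 FPKM on day 5, while no delta-9 gene was called between those days. On day 5 against day 3, 7 of the 13 markers were called lower and 0 higher. Of all compared genes, 14.7% were lower and 2.85% higher. The stricter rule called the same 7. Besides the yolk protein genes they were cpr-6, elt-2, ifb-2 and vha-6, named after their values were seen. vit-6 stood at 659 FPKM on day 5 and 3371 FPKM at 20°C. The part of the intestine in the fall of the delta-9 genes was not tested.

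Hypodermis markers summed to 62.5 FPKM on day 1 at 4°C and 510 FPKM at 10°C, of which the adult cuticle collagen gene col-19 made 37.2 and 478 FPKM. Of the 5 compared, 2 were called lower on day 1 against 10°C, where 14.5% of compared genes were lower. The stricter rule called 1 of them, col-19. The other, nhr-25, named after its values were seen, held 4 counts on day 1 and 2 at 10°C. Its interval held 1. elt-3 stood at 14.4 FPKM on day 1 and 16.4 FPKM at 10°C, and lin-26 at 7.34 and 5.73 FPKM. The genes of that list other than col-19 summed to low levels throughout, with rol-6 and bli-1 at 0 at 20°C. Germline markers summed to between 1491 and 1610 FPKM in all conditions, with 0 of 8 called on day 1 against 10°C. On day 5 against 20°C, 1 of 8 germline markers was called lower and 1 higher. The shares over all compared genes were 21.5% lower and 23.6% higher. cbd-1 was 3.42-fold lower there (3.14 to 3.72), and pgl-3, named after its values were seen, had a ratio of 2.75 (2.15 to 3.58). Pharynx markers summed to between 50.6 and 73.1 FPKM. On day 1 against 10°C, 2 of 7 were called lower, where 14.5% of compared genes were lower. On day 3 against day 1, 2 were called higher, where 5.38% of compared genes were higher. On day 5 against day 3, 3 were called lower, where 14.7% were lower. The part of the hypodermis in the fall of the family was not tested.

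The genes with profiles most like those of the family were found by the root mean square difference in log2(FPKM + 0.5) over the 5 conditions after centring, among genes with at least 100 counts. The nearest of 4841 genes to fat-6 was rla-1, an acidic ribosomal protein gene, at 0.17, followed by rps-12 at 0.32, a small-subunit ribosomal protein gene, spp-17 at 0.40, a saposin-like gene, asp-2 at 0.43, a protease gene, and eef-1B.1 at 0.44, a translation elongation factor gene. The median distance over all these genes was 1.76. The nearest to fat-5 was again rla-1 at 0.46, then fat-6 at 0.46, nep-17 at 0.51, a neprilysin gene, and the elongase genes elo-2 and elo-5, each at 0.68. The nearest to fat-7 were eef-1B.1 at 0.24, eef-1G at 0.30, another subunit of the same elongation factor, C35B1.5 at 0.33, F46H5.3 at 0.35 and spp-17 at 0.36. fat-6 came 32nd for fat-7, at 0.51. These distances rest on 5 pooled columns and describe likeness over them only, and fat-5 and fat-7 were themselves below 100 counts.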

How the data were processed

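The authors trimmed reads with fastp 0.23.4, aligned them with STAR 2.7.11b to WBcel235 and deposited FPKM of coding sequences, pooling the 2 libraries of a condition. The sources used here give neither whether this was a sum or a mean nor how reads matching several genes were counted. With a mean, the intervals are wider than the reads warrant. DESeq2 1.42.1 is also named by the submitters, for the estimation of expression values, and no test from it was used here. The table's 1 column of worms at 25°C belongs to none of the samples and was left out.

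Counts were recovered as FPKM times coding length (Ensembl release 115) over the smallest step of the column, and 100% of values came out whole within 0.01 count. Genes were called at 2-fold on log2(FPKM + 0.5). Ratios carry Clopper-Pearson, levels exact Poisson, shares Wilson, and differences between members exact conditional odds ratio intervals. Of each list, the 4 genes with the most counts were named, and for each member the 5 genes nearest in profile. The members and lists were chosen with earlier results of these data known. Scripts were tested on simulated counts. Tables were read with pandas 2.3.3 and NumPy 2.4.6 under Python 3.11.15, intervals came from SciPy 1.17.1 and figures from Matplotlib 3.10.9.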

Additional observations from a re-analysis of the deposited data

How the results depend on the processing

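The ratios of the 3 genes in the 7 comparisons gave 112 values under other scalings, pseudocounts and transcripts, and 112 kept their direction and their side of the threshold, with 0 reversed. The longest fat-6 transcript was among them and was chosen after the data were seen. Median-of-ratios scaling moved the log2 change of all genes by −0.17, −0.18 and −0.20 for days 1, 3 and 5 over 20°C, and by less than 0.1 elsewhere. No paired analysis was possible because the columns are pooled and carry no replicate numbers, and for the same reason none was left out in turn. The check of coding windows shared by the members was not run, as no coding sequences were used here.

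The number of all compared genes called at 2-fold was 2119 for 10°C over 20°C, 3218 for day 1 over 10°C, 1209 for day 3 over day 1, 1742 for day 5 over day 3, and 3174, 3845 and 4490 for days 1, 3 and 5 over 20°C. In that order it was 808, 1480, 543, 833, 1587, 2105 and 2599 with a mean of at least 5 FPKM, and 46, 795, 539, 881, 1089, 1653 and 1969 when 10 counts and an interval without 1 were also required. With no filter the first 5 were 3622, 5008, 2140, 2626 and 4948. On the transcripts with the most counts, 0 in place of 1 polyunsaturated fatty acid desaturase was lower at 10°C than at 20°C, and 2 in place of 1 on day 5 than on day 3.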
